A study of Mus musculus with 4 samples.

Results

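The genes described here encode inhibitory receptors of T cells (Pdcd1, Havcr2, Lag3, Ctla4, Tigit and Cd160), the ectonucleotidase CD39 (Entpd1) and the nuclear factors TOX and TOX2 (Tox and Tox2). They were taken by symbol, and all 9 were found among the 32285 genes counted in each of 4 single-cell libraries. The cells were CD8+ T cells grown from spleens of gBT-I.CD45.1 mice, whose transgenic T cell receptor recognises the gB498-505 peptide of herpes simplex virus. Splenocytes were activated with peptide-pulsed B6 splenocytes and LPS and then grown with human IL-2 at 12.5 U/ml. From day 3 to day 5 the butyrate group received 0.5 mM sodium butyrate and the control group received PBS, and viable CD8+Vα2+ cells were sorted on day 6. Each group has 2 cultures, and each of the 2 mice gave 1 culture per group, so the cultures numbered 1 come from one mouse and those numbered 2 from the other. The cells carry the same transgenic receptor and were grown outside the animal, with no tumour present.

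Inhibitory receptors are induced when a T cell is activated and dampen signals from the T cell receptor and from costimulation. PD-1 (Pdcd1) recruits the phosphatase SHP-2 to CD28 and the T cell receptor, CTLA-4 competes with CD28 for CD80 and CD86, LAG-3 binds MHC class II, and TIGIT competes with CD226 for CD155 and CD112. TIM-3 (Havcr2) binds galectin-9 and is found on effector and exhausted cells, CD160 binds HVEM, and CD39 cleaves extracellular ATP on the way to adenosine. TOX is needed for the persistence of exhausted CD8+ T cells under chronic antigen, and several of these receptors on one cell are commonly used to describe exhaustion, although activated effector cells carry many of them too. Butyrate is a short-chain fatty acid of gut bacteria that is taken up as a fuel and inhibits histone deacetylases.

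The stretch just upstream of the annotated transcript start is shown for 4 of the genes, chosen because they moved in different ways: Havcr2 and Pdcd1 were higher under butyrate, Cd160 was lower, and Tox2 went from 0 UMIs to a low level. Each sequence has 250 bases, is read 5′ to 3′ on the gene's strand and comes from RefSeq promoter records on GRCm38.p6, in which 7 of the 9 genes were matched. Where a gene has several records (2 for Cd160 and 5 for Tox2), the one farthest upstream is shown. Capitals mark matches on either strand to the GC box GGGCGG, the AP-1 site TGANTCA, the NFAT core GGAAAA or the T-box half-site GGTGTGA. The windows are chr11:46454681-46454930 on the plus strand for Havcr2, chr1:94052554-94052803 on the minus strand for Pdcd1, chr3:96829352-96829601 on the minus strand for Cd160 and chr2:163202877-163203126 on the plus strand for Tox2.
Havcr2: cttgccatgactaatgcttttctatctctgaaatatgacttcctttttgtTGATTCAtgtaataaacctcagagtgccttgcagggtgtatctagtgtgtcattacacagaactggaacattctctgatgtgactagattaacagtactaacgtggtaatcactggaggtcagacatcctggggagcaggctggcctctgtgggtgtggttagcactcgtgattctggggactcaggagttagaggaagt
Pdcd1: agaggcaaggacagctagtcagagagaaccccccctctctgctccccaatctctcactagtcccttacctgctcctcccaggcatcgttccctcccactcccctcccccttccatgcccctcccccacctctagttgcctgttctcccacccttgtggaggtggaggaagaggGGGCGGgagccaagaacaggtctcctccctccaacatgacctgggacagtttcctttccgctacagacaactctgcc
Cd160: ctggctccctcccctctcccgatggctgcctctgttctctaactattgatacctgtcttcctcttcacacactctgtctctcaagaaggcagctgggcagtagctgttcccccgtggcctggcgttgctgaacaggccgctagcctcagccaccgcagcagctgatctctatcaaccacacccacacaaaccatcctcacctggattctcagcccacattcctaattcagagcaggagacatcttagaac
Tox2: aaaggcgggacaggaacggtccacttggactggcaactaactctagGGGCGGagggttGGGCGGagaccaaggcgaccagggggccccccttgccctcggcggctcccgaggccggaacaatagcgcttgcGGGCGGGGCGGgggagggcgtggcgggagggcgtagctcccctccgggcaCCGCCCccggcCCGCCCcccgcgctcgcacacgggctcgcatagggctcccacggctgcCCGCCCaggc
The Havcr2 window held 1 AP-1 match, the Pdcd1 window 1 GC box, the Tox2 window 7 GC boxes, some of which overlap, and the Cd160 window none of the 4 motifs. The other Cd160 record held 1 GC box and 1 T-box half-site, and the other 4 of Tox2 held 3, 0, 1 and 1 GC boxes, the last 2 of them also an NFAT core each. Among the upstream windows of the same length of all 32851 RefSeq promoters, 32.7% held a GC box, 6.75% an AP-1 match, 20.4% an NFAT core and 3.33% a T-box half-site. The windows also differed in CpG content. The observed over expected CpG ratio was 0.164 for Havcr2, 0.149 for Pdcd1, 0.295 for Cd160 and 0.765 for Tox2, against a median of 0.374 over all promoters. In the records not shown it was 0.379 for Cd160 and from 0.305 to 0.912 for Tox2.

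Filtering left 2059, 2632, 2560 and 2664 cells, in the order control 1, control 2, butyrate 1, butyrate 2, which holds for every set of 4 values below. Library totals ran from 64388093 to 76522004 UMIs, and the median cell held between 20494 and 24816 UMIs. At least 1 UMI of Cd8a or Cd8b1, the CD8 chains, was found in 94.6 to 95.9% of the cells of each library. The defining marker of regulatory T cells, Foxp3, had 1, 3, 5 and 6 UMIs in all, and C1qa of macrophages had 0 in every library. Libraries shared between 1 and 6 cell barcodes per pair, against 0.776 to 1.03 expected by chance. A UMI of Trdc, the delta chain constant gene, was found in most cells before thinning, in 1559, 2005, 1381 and 1503 of them.

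Levels are given as CPM, a gene's UMIs relative to the library total, scaled by TMM, a factor that aligns the bulk of genes between libraries. A UMI is counted near the 3′ end of a transcript, so CPM is not divided by gene length. Under butyrate, 6 of the 9 genes were higher (Pdcd1, Havcr2, Ctla4, Tigit, Entpd1 and Tox2), Cd160 and Tox were lower, and Lag3 did not pass the test. Passing means an adjusted p under 0.05 in edgeR over 13487 genes. Most genes differed between the groups: 36% of those tested were called higher and 35.7% lower, so being called is by itself no mark of these 9. Their median log2 fold change was 0.89, against -0.0079 over all genes tested. All 9 passed the filter on low counts. Tox2 did so only through the butyrate libraries, so a difference was built into its passing, and the median of the other 8 was 0.75.

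**Figure D1:**
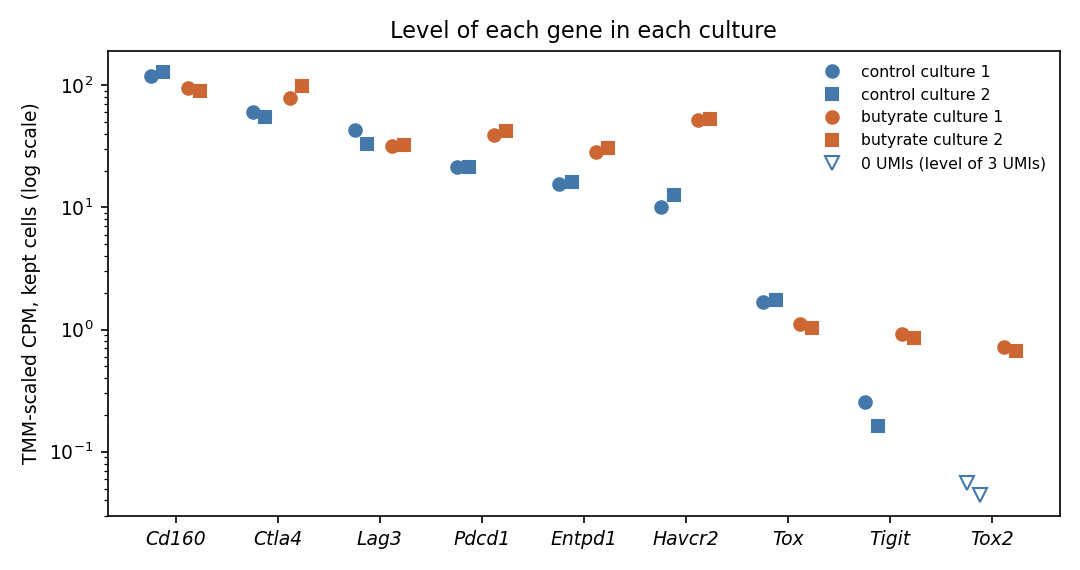
TMM-scaled CPM (log axis) of each gene in the 4 cultures, in order of the control level. Open triangles mark Tox2 in the control cultures, which had 0 UMIs, at the level that 3 UMIs would give. The butyrate points of Ctla4, Havcr2, Pdcd1, Entpd1, Tigit and Tox2 lie above both control points. Those of Cd160, Tox and Lag3 lie below, for Lag3 only just below control culture 2.

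Havcr2 (ENSMUSG00000020399, chromosome 11, 46454935 to 46481255, GRCm38), the gene of TIM-3, stood at 10.1 and 12.5 CPM in the control cultures and reached 51.5 and 52.8 CPM in the butyrate cultures. The groups lay far apart and the butyrate cultures were close to each other. The mean rose from 11.3 ± 1.74 to 52.1 ± 0.905 CPM (SD, n = 2), which is 4.59-fold or 2.20 on the log2 scale (SE 0.08; adjusted p = 1.72e-08 in edgeR). Of all genes tested, 6.88% had a larger change in either direction.

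Pdcd1 (ENSMUSG00000026285, chromosome 1, 94038305 to 94052553), the gene of PD-1, stood at 21.6 and 21.3 CPM in control and 39.2 and 42.2 CPM in butyrate. The mean was 1.90-fold higher in butyrate, and the spread inside either group was small beside this gap. The log2 fold change was 0.92 (SE 0.05, edgeR adjusted p = 8.64e-10), and 20.9% of genes changed more. Entpd1 (ENSMUSG00000048120, chromosome 19, 40612366 to 40741602), which encodes CD39, moved by a similar amount, from 15.6 and 16.1 CPM to 28.2 and 30.4 CPM. Its log2 fold change was 0.89 (SE 0.06, edgeR adjusted p = 2.53e-09).

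Ctla4 (ENSMUSG00000026011, chromosome 1, 60887000 to 60915832) stood at 60.0 and 55.4 CPM in control and 78.6 and 98.7 CPM in butyrate. The groups did not overlap, but the butyrate cultures differed from each other by more than the nearer of them differed from the nearer control culture. The log2 fold change was 0.62 (SE 0.14, edgeR adjusted p = 0.0304). The call was lost with the mouse as a replicate block (adjusted p = 0.0704), without control replicate 1 (0.162) or control replicate 2 (0.258), with a mitochondrial limit of 5% (0.113) and with library totals in place of TMM, where the log2 fold change was 0.42 (0.0701). In cells without a UMI of the cycle genes Mki67 and Top2a it was 0.05 (adjusted p = 0.726).

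Tigit (ENSMUSG00000071552, chromosome 16, 43648867 to 43664146) was rare, with 14, 11, 59 and 55 UMIs over all kept cells. These correspond to 0.257 and 0.164 CPM without and 0.917 and 0.859 CPM with butyrate. The log2 fold change was 2.10 (SE 0.29; adjusted p = 1.16e-05 in edgeR). The level under butyrate remained far below that of the other surface receptors.

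Cd160 (ENSMUSG00000038304, chromosome 3, 96798763 to 96829351) was the most abundant of the 9 in control, at 119 and 129 CPM, and stood at 95.1 and 90.0 CPM in butyrate. Its exons overlap those of Pdzk1 on the opposite strand in GENCODE M21. It fell by 0.42 on the log2 scale (SE 0.05, edgeR adjusted p = 1.42e-06), a change that 48.4% of genes exceeded in size. Lag3 (ENSMUSG00000030124, chromosome 6, 124904361 to 124911705), the receptor for MHC class II, stood at 43.2 and 33.1 CPM in control and 31.8 and 32.2 CPM in butyrate. Control culture 1 stood above the other 3 cultures, which lay close together. Lag3 did not pass in the main edgeR fit, but did with no filter on low counts (adjusted p = 0.0109). It also passed in edgeR without the cells with a UMI of Trdc or another marker of other cells (0.00922). Its log2 fold change in the main fit was -0.25 (SE 0.15, edgeR adjusted p = 0.240). Without control replicate 2 it was -0.43 (adjusted p = 4.65e-07), and without control replicate 1 it was -0.06 (adjusted p = 0.420).

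Tox (ENSMUSG00000041272, chromosome 4, 6686353 to 6991557) had 92, 117, 72 and 66 UMIs, which are 1.69 and 1.74 CPM in control and 1.12 and 1.03 CPM in butyrate. It fell by 0.67 on the log2 scale (SE 0.17, edgeR adjusted p = 0.00230). With DESeq2 the adjusted p was 0.0551, with cells thinned to one depth 0.0528 and with a mitochondrial limit of 5% 0.0833. Leaving out every cell with a UMI of Trdc or of another foreign marker, which removed 54.9 to 76.3% of the cells, gave a difference of -0.0027 (adjusted p = 0.997). Its exons overlap an antisense gene, Gm11802.

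Tox2 (ENSMUSG00000074607, chromosome 2, 163203125 to 163324170) moved the opposite way. No UMI was found in 2059 and 2632 control cells, and 46 and 43 UMIs were found under butyrate, or 0.715 and 0.672 CPM. Against the level that 3 UMIs would give in each control library, Tox2 was at least 13.9-fold higher. Tox2 passed the filter on low counts only through the butyrate libraries. A difference was thus built in, and its edgeR adjusted p of 1.92e-07 adds no separate support. Barcodes with at most 100 UMIs, which carry free RNA, also held 0 Tox2 UMIs in both control libraries and 8 and 2 in the butyrate libraries. The other TOX family genes did not pass: Tox4 was at 45.5 and 46.8 CPM in control and 44.6 and 45.3 CPM in butyrate, and Tox3 had between 11 and 19 UMIs per library.

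In control the order of levels was Cd160, Ctla4, Lag3, Pdcd1, Entpd1, Havcr2, Tox, Tigit and Tox2, and no neighbours in it overlapped between cultures. In butyrate the order was Cd160 and Ctla4, which overlapped, then Havcr2, Pdcd1, Lag3, Entpd1, Tox, Tigit and Tox2. Havcr2 thus moved from below Entpd1 to above Pdcd1 and Lag3. Tox and Tox2 both stayed under 2 CPM in all 4 libraries.

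To see how many cells carried each RNA, every cell was thinned at random to 8000 UMIs, which left 1988 and 2520 control cells and 2506 and 2596 butyrate cells. Havcr2 was detected in 5.94 and 7.34% of the cells without butyrate and 28.7 and 31.6% of those with it. For Pdcd1 the shares were 14.7 and 14.8% against 25.2 and 26.2%. Entpd1 stood at 11.97 and 12.9% against 18.1 and 19.8%. The shares moved with the levels. UMIs per positive cell stayed between 1.24 and 1.33 for Pdcd1 and went from 1.19 and 1.19 to 1.42 and 1.38 for Havcr2. The mean per thinned cell was at most 0.347 UMIs for Pdcd1 and 0.437 for Havcr2. At such counts UMIs per positive cell lie near their lowest possible value. They cannot separate more positive cells from more RNA per cell.

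Cd160 went the other way, from 55.5 and 57.7% of cells to 39.2 and 40.5%. Lag3 shares were 31.9 and 25.4% without butyrate against 22.1 and 21.03% with it. Tigit was found in 0.201 and 0.159% against 0.918 and 0.616% of cells. Tox was found in 1.61 and 1.35% against 0.838 and 0.847% of cells. Tox2 was in 0 of 1988 and 0 of 2520 control cells, which allows shares of up to 0.151% and 0.119%, and in 0.638 and 0.655% of butyrate cells. The shares of 5 genes were higher and those of 3 lower in both butyrate cultures than in both control cultures, and those of Ctla4 overlapped. With 2 cultures against 2, the exact two-sided permutation test gave p = 0.333 for each of the 8, the smallest it can give, and 0.667 for Ctla4. How many of all genes had shares that did not overlap was not counted. In the fit over all genes 36% were called higher and 35.7% lower, so these counts are by themselves no mark of the members. Free RNA may add to the shares of cells given here. In barcodes with at most 100 UMIs the 8 genes other than Tox2 stood at 0.376 to 1.71 times their CPM in kept cells, and no cell type that should lack the receptors was at hand to measure the background share, so its part was not tested.

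Ctla4 was the gene whose shares overlapped between groups. Positive cells made up 40.2, 35.6, 32.2 and 37.6% of the libraries, while the mean went from 0.639 and 0.602 to 0.676 and 0.809 UMIs per thinned cell. Each positive cell held on average 1.59, 1.69, 2.10 and 2.15 Ctla4 UMIs. The Fano factor, the variance of UMIs over cells divided by their mean, was 1.78, 1.90, 3.70 and 3.50. It lay between 0.984 and 1.89 for the other 8 genes wherever they were detected. Cells with at least 5 Ctla4 UMIs were 0.956, 1.19, 2.59 and 3.58% of the libraries. They held 9.91, 11.7, 29.2 and 33.4% of all Ctla4 UMIs, so in butyrate a few cells held a larger part of the Ctla4 RNA. The limit of 5 UMIs was chosen after the distribution was seen. In butyrate these cells carried Cd160 less often, in 21.5 and 25.8% of cases, than cells without Ctla4, at 43.2 and 46.0%. In control the corresponding values were 63.2 and 36.7% of 19 and 30 cells, against 56.8 and 58.1%. In all 4 libraries the cells with at least 5 Ctla4 UMIs more often lacked UMIs of the cycle genes Mki67 and Top2a. They did so in 52.6, 43.3, 35.4 and 25.8% of cases, against 9.26, 9.80, 12.2 and 13.1% of cells without Ctla4. They also carried Il7r and Lag3 more often than cells without Ctla4 in every library, while Havcr2 and Tcf7 were mixed. These traits were partly shared by cells with 1 to 4 Ctla4 UMIs. In butyrate those carried Cd160 in 31.6 and 32.0% of cases. Their Il7r shares there were 36.8 and 37.5%, against 36.9 and 40.9% at 5 or more UMIs. In control their Il7r shares, 35.2 and 37.4%, lay below those at 5 or more. Lag3 and the lack of cycle gene UMIs were more frequent at 5 or more in all 4 libraries. No test was made over cells, which are not replicates.

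**Figure D2:**
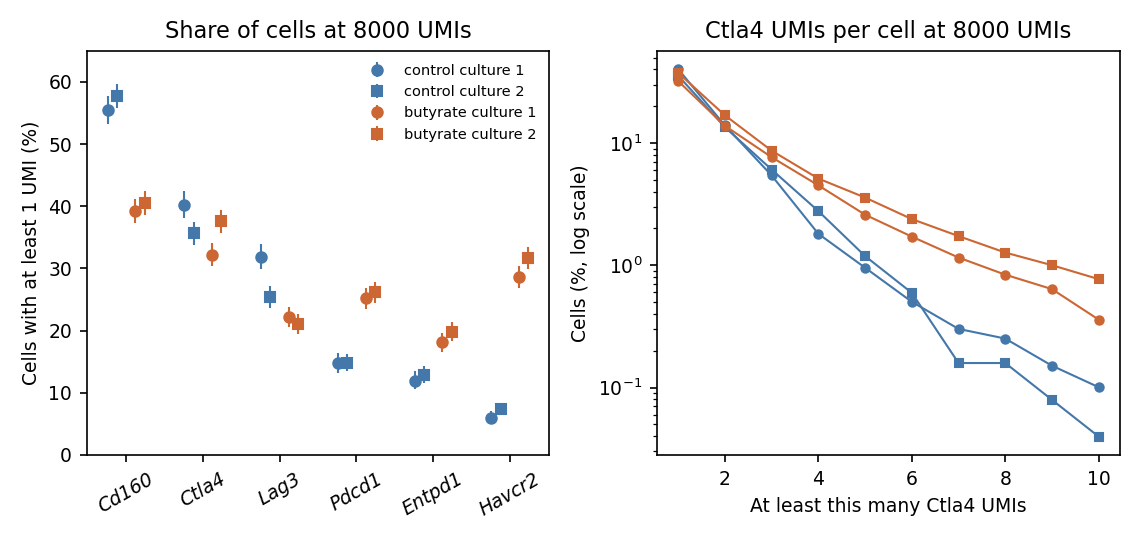
Left, percent of thinned cells with at least 1 UMI of each gene, with exact binomial 95% intervals that cover counting error only. Right, percent of cells (log axis) with at least a given number of Ctla4 UMIs. The Ctla4 curves start together, between 32.2 and 40.2% at 1 UMI, and part from 3 UMIs on, with both butyrate cultures higher.

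How many of the 7 surface genes (the receptors and Entpd1) a single cell carried was counted at the same depth. The mean was 1.60, 1.54, 1.66 and 1.77 genes per cell, higher by 0.146 with butyrate. This difference depended on depth and library: it was 0.0658 at 4000 UMIs per cell, 0.511 without thinning and 0.0913 without butyrate replicate 2. At least 3 of the 7 were found in 18.2, 17.3, 22.3 and 24.04% of cells, and at least 4 in 3.62, 3.37, 5.67 and 6.78%. The groups did not overlap in either share, but at 4000 UMIs they did for at least 4 genes. If the 7 genes were spread over cells independently, 17.8, 15.9, 21.2 and 24.5% of cells would have at least 3, so the observed shares were 1.02, 1.09, 1.05 and 0.983 times that. For at least 4 genes the ratios were 1.15, 1.22, 1.09 and 1.06. At 4000 UMIs they were 1.26, 1.14, 1.01 and 1.04 for at least 3 genes and 2.04, 1.502, 1.07 and 1.02 for at least 4, highest in control.

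**Figure D3:**
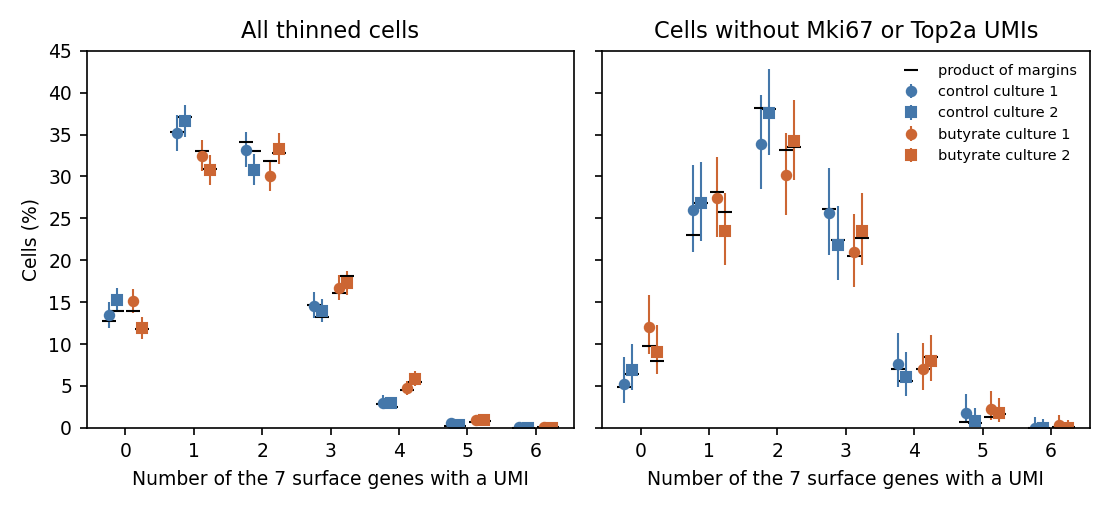
Percent of thinned cells by how many of the 7 surface genes had a UMI, for all cells (left) and for cells without Mki67 or Top2a UMIs (right), with exact binomial 95% intervals. Black dashes mark the product of the single-gene shares. The points stay close to the dashes in both panels, and cells with 3 or 4 of the genes are more common on the right.

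In cells without a UMI of Mki67 or Top2a, genes of cycling cells, the groups overlapped in the mean number and in the share with at least 3 genes. The mean number there, an alternative chosen after the data were seen, was 2.10, 1.96, 1.91 and 2.03, which gives a butyrate minus control difference of -0.0548, and at least 3 genes were found in 34.9, 28.7, 30.4 and 33.2% of cells. At least 4 were found in 9.34, 6.91, 9.497 and 9.75%, which did not overlap. The genes that made up the number differed between groups. Among all thinned cells, Pdcd1 and Havcr2 occurred together in 1.06, 1.43, 8.42 and 9.17% of cells, and Havcr2 with Entpd1 in 1.16, 1.27, 6.34 and 7.59%. Ctla4 occurred with Cd160 in 21.5, 20.3, 9.90 and 11.8% of cells.

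The tendency of 2 genes to occur in the same cell beyond their single shares was described by the log2 odds ratio of co-detection, which is 0 for independent genes. Of 36 pairs, 17 were common enough to read, with at least 5 co-detected cells expected in every library. The ratio was above 0 in all 4 libraries for 6 pairs and below 0 in all 4 for 2, while the others were mixed. How often pairs of other genes lie on the same side of 0 in every library was not counted. These counts are thus by themselves no mark of the members. Pdcd1 was in 4 of the 6, with Havcr2 (0.37, 0.53, 0.44 and 0.31), Lag3 (0.43, 0.27, 0.47 and 0.21), Cd160 (0.20, 0.18, 0.12 and 0.12) and Entpd1 (0.46, 0.19, 0.20 and 0.36). The others were Havcr2 with Entpd1 (0.92, 0.55, 0.53 and 0.54) and Lag3 with Ctla4 (0.49, 0.64, 0.66 and 0.80). With cells thinned to 4000 UMIs, 4 of these 6 pairs were common enough to read, and 1 of them, Lag3 with Ctla4, was above 0 in every library. The lowest value there was -0.02 for Pdcd1 with Lag3, -0.16 for Pdcd1 with Cd160 and -0.04 for Pdcd1 with Entpd1. Without thinning all 6 were above 0 in every library. These are weak tendencies in sparse counts, and cells with Lag3 or Ctla4 also came from cells with fewer UMIs before thinning (medians of 17843 with and 25451 without Ctla4 in control culture 1, and 21591 and 25738 in butyrate culture 2).

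Ctla4 and Cd160 were found together less often than their shares give. The log2 odds ratio was -0.19 and -0.07 in control and -0.77 and -0.89 in butyrate, so that the groups did not overlap, and in butyrate 248 and 306 cells carried both genes. With 4000 UMIs per cell this pair stood at -0.43, 0.01, -0.62 and -0.93. Havcr2 with Cd160 was the second pair below 0, at -0.54, -0.27, -0.09 and -0.25, but without thinning all 4 of its values were above 0 (0.56, 0.53, 0.28 and 0.19). Lag3 with Ctla4 depended on which cells were counted: in cells without Mki67 or Top2a UMIs the ratio was -0.08 and -0.12 in control and 0.73 and 1.00 in butyrate.

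**Figure D4:**
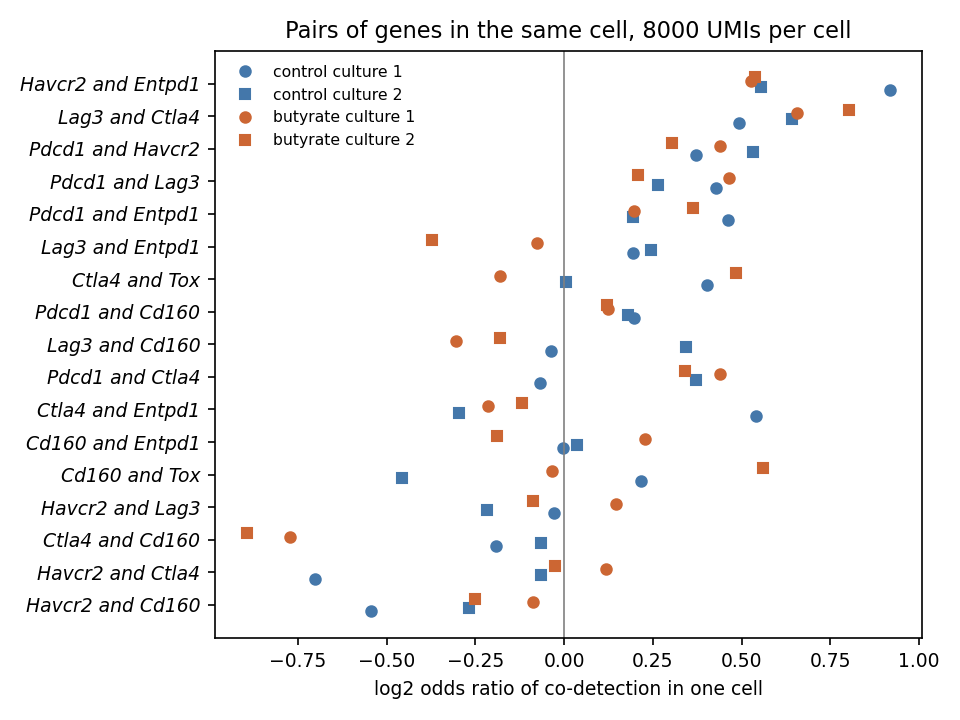
Log2 odds ratio of finding both genes of a pair in the same thinned cell, for the 17 pairs common enough to read, in order of the control mean, with 1 point per culture. Pairs with Pdcd1 and the pair Havcr2 and Entpd1 lie mostly right of 0, and the butyrate points of Ctla4 and Cd160 lie at -0.77 and -0.89.

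The series title names CD127, the product of Il7r, a receptor chain for interleukin-7 that marks precursors of memory cells. Thinned cells with an Il7r UMI (26.1, 25.3, 28.5 and 29.4% of cells) were compared with the rest inside each library. In control, Ctla4, Lag3 and Cd160 were higher in Il7r cells and Havcr2 lower. In butyrate, Ctla4 and Lag3 were still higher and Cd160 was lower. Of 7 genes that could be tested, 3 were higher and 1 lower in control, where 18.3% and 19.1% of all genes were called in those directions, and 2 were higher and 1 lower in butyrate, where 3.84% and 5.63% were. Tigit and Tox2 were too rare for this test, and Pdcd1, Entpd1 and Tox did not pass in either group.

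Ctla4 stood at 60.9 and 54.3 CPM in control cells without Il7r and 116 and 118 CPM in those with it. The log2 difference was 1.03 (SE 0.06, edgeR adjusted p = 1.16e-29) in control and 0.64 (SE 0.06, 3.22e-17) in butyrate. For Lag3 the differences were 0.73 (SE 0.08, adjusted p = 2.55e-13) and 0.33 (SE 0.09, 0.00901). Cd160 turned sign: it was at 111 and 121 CPM without Il7r and 135 and 153 CPM with it in control, and at 90.9 and 94.6 against 82.6 and 72.0 CPM in butyrate. Its log2 differences were 0.31 (SE 0.06, edgeR adjusted p = 1.65e-06) and -0.27 (SE 0.06, 0.00167). Havcr2 was lower in the Il7r cells of control, with a log2 difference of -0.62 (SE 0.19, edgeR adjusted p = 0.00567) and did not pass in butyrate at 0.02 (SE 0.08, 0.943).

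The class difference itself changed with treatment for these 4 genes (edgeR interaction, butyrate minus control), where 17.8% of all genes were called. It was -0.39 for Ctla4 (adjusted p = 0.000243), -0.40 for Lag3 (0.0112), -0.57 for Cd160 (2.31e-08) and 0.63 for Havcr2 (0.0194). With 2 cultures per group these calls rest on few libraries. Without control replicate 1 Havcr2 had an adjusted p of 0.200 in control and 0.255 for the interaction, and without butyrate replicate 2 the interaction was at 0.127. The Lag3 interaction was at 0.347 without control replicate 2 and 0.247 without butyrate replicate 1, and that of Ctla4 at 0.107 without control replicate 2. Without butyrate replicate 2, Lag3 (0.539) and Cd160 (0.580) no longer passed in butyrate.

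Most cells held an Mki67 or Top2a UMI, from genes expressed in cycling cells, with shares of 85.5, 85.6, 85.7 and 84.6%. Of the 9 genes, 8 could be tested, Tox2 being too rare. In control, Pdcd1, Lag3, Ctla4 and Cd160 were all lower in cells with such a UMI. Lower calls were made for 25.8% of all genes and higher calls for 21.5%, of which none of the 9 was one. In butyrate, Pdcd1, Lag3, Ctla4, Havcr2 and Entpd1 were lower, where 11.4% of genes were called lower and 12.3% higher. Tigit and Tox did not pass in either group.

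In cells without such a UMI, called non-cycling here, Ctla4 stood at 155, 155, 156 and 154 CPM, nearly level across the cultures. In cells with one it stood at 60.2, 54.7, 75.7 and 94.7 CPM, with both butyrate cultures higher. The class difference was -1.44 (SE 0.08, edgeR adjusted p = 4.90e-22) in control and -0.86 (SE 0.08, 6.40e-14) in butyrate. Over non-cycling cells alone the butyrate minus control difference was 0.05 (SE 0.09, edgeR adjusted p = 0.726).

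Cd160 differed more between the groups in non-cycling cells. These held 184 and 194 CPM in control and 88.2 and 101 CPM in butyrate, while cycling cells held 103 and 113 CPM against 84.6 and 81.3 CPM. Among non-cycling cells alone the butyrate minus control log2 fold change was -0.95, against -0.42 over all cells. Its class difference was -0.81 (SE 0.07, edgeR adjusted p = 8.78e-15) in control and -0.19 (SE 0.08, 0.0788) in butyrate. Lag3 likewise fell from 99.8 and 69.1 CPM to 43.2 and 44.4 CPM in non-cycling cells, a log2 fold change of -0.88 (edgeR adjusted p = 5.93e-05), although over all cells it did not pass. In cycling cells Lag3 stood at 44.4 and 32.4 CPM against 32.4 and 31.2 CPM.

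Pdcd1 was at 43.3 and 39.4 CPM in non-cycling and 18.2 and 17.8 CPM in cycling control cells, and at 50.4 and 64.9 against 41.0 and 40.8 CPM in butyrate. The interaction with treatment was 0.70 for Pdcd1 (edgeR adjusted p = 0.00142), 0.67 for Lag3 (0.000406), 0.58 for Ctla4 (5.53e-05) and 0.61 for Cd160 (1.09e-05), and 17.9% of all genes were called for it. The Pdcd1 interaction was lost when a control library was left out (0.0686 without control replicate 1, 0.0532 without control replicate 2). In butyrate the class calls of Havcr2 (0.0105) and Entpd1 (0.00223) were lost without butyrate replicate 1, at 0.0794 and 0.0637, and without butyrate replicate 2 those of Pdcd1 (0.246), Lag3 (0.0858) and Havcr2 (0.132) were lost.

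**Figure D5:**
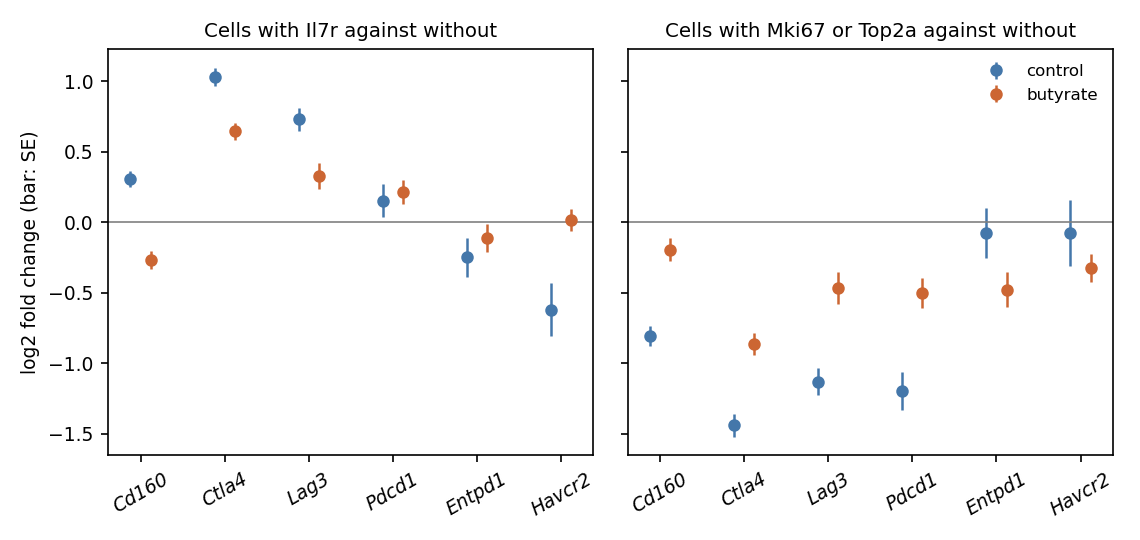
Log2 fold change with its SE between cells with and without an Il7r UMI (left) and with and without an Mki67 or Top2a UMI (right), within control and within butyrate. Cd160 lies above 0 in control and below 0 in butyrate on the left, and on the right the butyrate points of Cd160, Ctla4, Lag3 and Pdcd1 lie nearer to 0 than those of control.

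The genes whose UMIs followed those of a member across single cells were searched among all genes with a mean of at least 0.05 UMIs per thinned cell. A Pearson correlation of at least 0.15 in all 4 libraries was reached by few. Havcr2 went with Prf1, the gene of perforin (mean 0.238 over the libraries, from 0.204 to 0.262), and with Gzma, the gene of granzyme A (mean 0.187). Ctla4 went with S100a10, an annexin partner (mean 0.307, from 0.293 to 0.330), with Ms4a4b (0.238) and with Tpt1 (0.237). These are correlations across 1988 to 2596 cells of 1 library each, which share that library's depth and source. No gene reached this level with Pdcd1, Lag3, Cd160, Entpd1, Tigit or Tox.

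Other genes of the same pathways were counted in the same fit, where all genes were called higher or lower as often as given above. Among 15 tested genes of other inhibitory receptors, 8 were higher and 3 lower (median log2 fold change 0.21). Cd200r1, the receptor for CD200, was at 0.826 and 0.699 CPM in control and 11.5 and 10.9 CPM in butyrate (log2 3.88, edgeR adjusted p = 7.86e-13). Klrc1, which encodes NKG2A, rose by a log2 fold change of 0.46 (adjusted p = 3.20e-05). Cd96, a receptor for CD155 like TIGIT, fell by 1.08 on the log2 scale (edgeR adjusted p = 2.60e-10), and Tnfrsf14, the HVEM partner of CD160, by 1.18 (0.00308). Tnfrsf14 was rare, with 28, 48, 21 and 14 UMIs over all kept cells.

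The list of ligands of these receptors leaves out Tnfrsf14, the HVEM partner of CD160, which was counted above and fell. All 12 tested genes on this list were higher under butyrate (median 1.49). Of these, Nectin2, H2-Aa and H2-Eb1 passed the filter on low counts only through the butyrate libraries, so they had to differ, and the median of the other 9 was 1.15. Pdcd1lg2, which encodes the PD-1 ligand PD-L2, went from 8.48 and 9.39 to 27.8 and 27.3 CPM (log2 1.62, edgeR adjusted p = 1.23e-11), while Cd274, the gene of PD-L1, rose by 0.31 (0.00341). Nectin2, which encodes the TIGIT ligand CD112, had 4, 9, 202 and 224 UMIs. The MHC class II genes H2-Aa and H2-Eb1 were near 0 in control as well, at 2 to 5 UMIs, and at 48 to 125 in butyrate. H2-Ab1, also of MHC class II and on this list, was well detected in control, at 32.1 and 26.7 CPM. It stood at 35.9 and 41.1 CPM in butyrate (log2 0.39). Markers of other cells moved in both directions. The summed level of B cell markers fell from 145 and 149 to 45.2 and 45.7 CPM, although 2 of 3 tested were higher. The defining B cell marker Cd79a had only 3, 3, 5 and 4 UMIs, so it made up almost none of this sum. The summed level of gamma-delta T cell markers fell from 183 and 182 to 86.3 and 88.0 CPM, while those of myeloid and dendritic markers rose. The gamma-delta list includes Trdc, which was found in most of the sorted CD8+ cells before thinning, as given above. The summed level of the 8 myeloid markers was 2.17 and 2.63 CPM in control and 12.9 and 14.4 CPM in butyrate, with 3 of 8 higher, C1qa, C1qb and Adgre1 at 0 in every library and at most 1 UMI of Lyz2. For the 7 dendritic markers, of which H2-Eb1 is one, it was 1.66 and 2.40 CPM against 6.49 and 7.12 CPM, with 4 higher and Siglech at 0. Their part in the ligand counts was not tested.

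Of 9 activating receptors that pair with these inhibitory ones, 6 were higher and 3 lower (median 0.29), the 6 including Cd4, which passed the filter only through the butyrate libraries. Tnfrsf4, the gene of OX40, rose by 2.63 (edgeR adjusted p = 1.11e-11) and Icos, a relative of CD28, by 1.46 (3.97e-08). Cd27 fell by 1.44 on the log2 scale (edgeR adjusted p = 3.22e-12), and Cd226, which shares its ligands with TIGIT, by 0.30 (0.000101). Among 18 phosphatases and adaptors downstream of the receptors, 3 were higher and 12 lower (median -0.28). Ptpn6, the gene of SHP-1, went from 97.9 and 97.0 to 52.8 and 45.8 CPM (log2 -0.98, edgeR adjusted p = 2.28e-08), and Sh2d2a fell by 1.06 on the log2 scale (1.48e-11). Ubash3b, a phosphatase of T cell receptor signalling, rose by 0.75 (1.43e-09) and the adaptor gene Grb2 by 0.50 (4.03e-08).

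Of 10 genes for the trafficking and shedding of the receptors, 2 were higher and 6 lower (median -0.20). The recycling endosome gene Rab11a rose by 0.80 (edgeR adjusted p = 1.00e-09) and Rab8a by 0.17 (0.00223). The clathrin adaptor gene Ap2m1, whose product takes up CTLA-4, fell by 0.58 on the log2 scale (1.03e-08), and Adam10, a protease that sheds LAG-3 and TIM-3, by 0.56 (1.11e-07). Beside Entpd1, 12 genes of extracellular ATP and adenosine handling were tested, with 6 higher and 3 lower (median 0.40). Nt5e, which encodes CD73, the enzyme acting after CD39, went from 1.89 and 1.67 to 6.91 and 7.64 CPM (log2 2.04, edgeR adjusted p = 5.10e-10). The nucleoside transporter gene Slc29a1 rose by 0.88 (2.11e-10), whereas Dpp4, counted on this list, fell by 1.86 on the log2 scale (2.98e-12) and Entpd5 by 0.54 (1.27e-06).

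Among 27 transcription factors of activated and exhausted T cells, 18 were higher and 5 lower (median 0.57). Prdm1, the gene of BLIMP-1, rose by 1.88 (edgeR adjusted p = 4.39e-12) and Foxo1 by 1.15 (1.25e-11). Tcf7, the gene of TCF-1 of stem-like cells, went from 29.9 and 30.6 to 8.28 and 9.42 CPM (log2 -1.77, edgeR adjusted p = 6.50e-12), and Nfatc3 fell by 0.61 on the log2 scale (8.39e-09). Markers of NK cells stood beside these changes. Their summed level was 12.1 and 16.3 CPM in control and 53.9 and 65.6 CPM in butyrate, with 2 of 3 tested markers higher, while the defining Ncr1 had at most 2 UMIs in any library. Cd4 had 3, 1, 33 and 40 UMIs. Without the cells that held a UMI of a foreign marker other than Trdc, an alternative added after the data were seen, every call among the 9 genes was kept. Ctla4 then had an adjusted p of 0.0346, Lag3 of 0.228 and Tox of 0.00293.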

How the data were processed

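Droplet 3′ RNA was counted in 4 libraries, 2 per group. The deposited matrices hold raw UMI counts per gene and barcode, per the file headers, for all 6794880 barcodes of the chemistry, unfiltered. Cell Ranger 4, Seurat 4.3 and mm10 are listed in the submitters' processing notes. The sources used here give neither the annotation release nor the treatment of intronic reads. The features and barcodes that the authors deposited carry labels, not measurements.

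Cells were barcodes with at least 10% of the 99th percentile of the top 3000 barcodes, at least 500 genes and under 10% mitochondrial UMIs. No doublet caller was used. An alternative left out the 5% of cells with the most UMIs. The UMIs of each library's cells were added up and went into edgeR 4.0.16 (R 4.3.3) with TMM scaling, filterByExpr and its robust quasi-likelihood test with only the group in the model. Adjustment was by Benjamini-Hochberg over all genes tested, with a threshold of 0.05. SEs were derived from the fold change and the F statistic. With 2 cultures per group, p-values draw on spread pooled over genes. For class comparisons, thinned UMIs were summed per library and class and fitted with library as a block and a class by treatment term. Per-cell values used cells thinned to 8000 UMIs (seed 11) in Python 3.11.15 with NumPy 2.4.6 and SciPy 1.17.1, leaving out 71, 112, 54 and 68 shallower cells. Intervals are exact binomial (Clopper-Pearson, 95%), and limits for 0 counts take 3 counts. Both cover counting error only. The odds ratio had 0.5 added to each count. DESeq2 1.42.0 was an alternative. The fits were run on simulated data in which 200 genes were changed by known folds and all genes had the same dispersion. Far more genes differed in the real data, so this run cannot check the calls under such a wide change.

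Cultures with the same number come from the same mouse, per the labels' descriptions. Their deviations from group means correlated weakly over 13487 genes (Pearson 0.059, Spearman 0.053). Gene coordinates are from GENCODE M21 (GRCm38).

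Members, gene lists and tests were chosen with earlier results of these data known. All 9 members are named. From each pathway list up to 2 genes per direction with the smallest p among passing genes are named. Cd274, Tox3, Tox4, H2-Aa, H2-Ab1 and H2-Eb1 were named after their values were seen. Genes alike across cells are named at a correlation of at least 0.15 in every library.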

Additional observations from a re-analysis of the deposited data

Results flagged for a closer look

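The gap between cells with and without an Il7r UMI differed between the cultures with and without butyrate for 4 of the genes, as tested by the class by treatment term of the edgeR fit. On the log2 scale the signed gap changed by 0.634 for Havcr2, which was lower in Il7r cells of control and did not pass in butyrate. It changed by -0.402 for Lag3, -0.388 for Ctla4 and -0.574 for Cd160. The last crossed 0, so that Cd160 was higher in Il7r cells of control and lower in those of butyrate. The share of cells with a Cd160 UMI was nearly level in cultures numbered 1. It was 55.7% with and 55.4% without an Il7r UMI in control, and 39.1 and 39.2% in butyrate. In cultures numbered 2 it was 60.3 and 56.9% in control, and 34.2 and 43.1% in butyrate. The gap between cells with and without an Mki67 or Top2a UMI, tested the same way, moved towards 0 under butyrate by 0.696 for Pdcd1, 0.666 for Lag3, 0.575 for Ctla4 and 0.613 for Cd160.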

How the results depend on the processing

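Of the 9 genes, 6 were called higher and 2 lower. Leaving out 1 library at a time gave 5 to 6 higher and 2 to 3 lower calls. With the mouse as a replicate block, 5 were higher, since Ctla4 was lost, and no other of the 9 calls changed. The paired differences within a mouse gave a higher share of cells for 5 and 6 genes and a lower one for 4 and 3. The lower calls fell to 1 with DESeq2, with thinned cells and with a mitochondrial limit of 5%, each by losing Tox. In cells without Mki67 or Top2a UMIs 3 were higher, with 6 of the 9 genes testable. Library totals in place of TMM moved the median of all genes to -0.21, with 3395 higher and 6710 lower. Shares of cells with at least 2 UMIs were higher for 3 genes, and leaving out a library gave 5 to 5 higher and 3 to 4 lower shares. The difference in the mean number of surface genes was 0.0658 at 4000 UMIs per cell, 0.511 without thinning and -0.0548 without cycling cells, and 0.0913 to 0.200 when a library was left out. The difference in cells with at least 3 was 1.30 points at 4000 UMIs, 13.96 without thinning and 0.00975 without cycling cells, 2.73 for at least 4, and 4.57 to 6.26 with a library left out. Pairs above 0 in every library numbered 5 at 4000 UMIs, 12 without thinning and 3 without cycling cells, and pairs below 0 numbered 1 at 4000 UMIs and 1 without cycling cells. With a library left out they numbered 6 to 7 and 2 to 4. Il7r class calls then numbered 3 to 4 in control, 1 to 4 in butyrate and 2 to 3 by treatment, and cycle class calls 4 to 4, 2 to 5 and 3 to 4. The cause of these shifts was not tested. Where leaving out a library left 1 in a group, it was assumed to vary like the others. Depth limits Tigit, Tox and Tox2, which could not be tested in non-cycling cells.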
